A study of Mus musculus with 2 samples.

Results

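The phagocyte NADPH oxidase is described here through 5 of its subunit genes in tumours of Hepa1-6, a cell line from a mouse hepatocellular carcinoma. The genes were Cybb, Cyba, Ncf1, Ncf4 and Rac2, taken by gene symbol from the deposited count table as known targets of the transcription factor IRF8 in phagocytes. All 5 were found among its 54532 genes, and all 5 had a mean of at least 1 CPM (counts per 1000000 counts), as did 14775 genes in all. The samples were 2 tumours in C57BL/6 mice, 1 per group, whose ages are not stated in the labels. The vector tumour came from Hepa1-6 cells carrying an empty lentivirus and the IRF8 tumour from cells carrying a lentivirus that overexpresses IRF8. Both viruses also carry GFP and puromycin resistance, and the cell populations were placed on opposite sides of the same animal. RNA came from whole tumour tissue, so transcripts of the host's immune cells and of the cancer cells were counted together, and the host kept its own immune system.

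The oxidase makes superoxide by passing electrons from NADPH to oxygen across the membrane of phagosomes and the cell surface, and is known for the respiratory burst of neutrophils and macrophages. Its membrane core is a pair of proteins encoded by Cybb, the catalytic subunit, and Cyba, its stabilising partner. In resting cells the organiser encoded by Ncf1 and the regulator encoded by Ncf4 stay in the cytosol, and on activation they join the core together with a Rac GTPase. In people, inherited loss of this oxidase causes chronic granulomatous disease. In human myeloid cells, IRF8, IRF1 and PU.1 are known to act together on the gene of the catalytic subunit.

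The library labelled vector held 20223649 counts and the library labelled IRF8-overexpression 17316607. Irf8, the targeted gene, had 4178 counts in the first and 2578 in the second, 209.5 and 146.8 CPM, so it was lower in the library labelled as overexpressing it. The log2 ratio was -0.51 with a 95% counting interval of -0.58 to -0.44. Because Irf8 runs counter to the labels, the names vector-labelled and IRF8-labelled are used throughout. Every direction given here rests on those labels. Counts per gene do not show whether a read came from the construct or from the mouse gene. With 1 library per group there is no replicate check, no test was possible and no p-value is given. Ratios are IRF8-labelled over vector-labelled after scaling, and intervals cover counting error only. Both kinds of cell were represented: hepatocyte and hepatoma markers summed to 9084 and 4661 CPM and macrophage markers to 2172 and 2089 CPM.

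The sequences just before the start sites of Cybb and Ncf1 are shown because these 2 subunit genes, both chosen as IRF8 targets, stood on opposite sides between the libraries. RefSeq (GRCm38.p6, the assembly of mm10) gave a promoter for 3 of the 5 genes, Cybb, Cyba and Ncf1. Capitals mark matches to the interferon-stimulated type, searched as GAAA and GAAA with any 2 bases between, and to the gamma-activated type TTCNNNGAA. Each sequence holds the 250 bases before the RefSeq start and is written 5′ to 3′ on the gene's own strand, the minus strand for both genes. The RefSeq start of Cybb lies inside the span of the deposited gene, which reaches farther upstream. The Cybb sequence lies at chrX:9469325-9469574 and the Ncf1 sequence at chr5:134229626-134229875.
Cybb: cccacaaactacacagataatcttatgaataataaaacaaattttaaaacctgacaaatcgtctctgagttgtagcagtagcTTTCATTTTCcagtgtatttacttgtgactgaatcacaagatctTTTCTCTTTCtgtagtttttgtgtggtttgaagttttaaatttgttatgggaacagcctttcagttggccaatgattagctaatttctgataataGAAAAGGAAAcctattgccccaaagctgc
Ncf1: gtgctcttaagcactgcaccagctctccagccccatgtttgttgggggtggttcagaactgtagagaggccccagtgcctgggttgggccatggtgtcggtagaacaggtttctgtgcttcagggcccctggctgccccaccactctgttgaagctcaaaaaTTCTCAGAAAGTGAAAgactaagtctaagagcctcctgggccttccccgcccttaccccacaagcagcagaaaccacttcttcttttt

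The Cybb sequence held 3 matches to the interferon-stimulated type, at -168 to -159, -124 to -115 and -29 to -20 from the start, the first 2 of them on the opposite strand. Just after its start, at 4 to 13, lay a match to the composite type known for PU.1 with an IRF, searched as GGAA and GAAA with any 2 bases between, and at 10 to 15 an overlapping PU box (GAGGAA), both on the opposite strand. The Ncf1 sequence held 1 match to the interferon-stimulated type at -82 to -73, which overlaps a match to TTCNNNGAA at -88 to -80. The Cyba promoter held no match to any of these motifs or to TATAAA. Counting both strands of all 32851 RefSeq promoters (250 bases before and 50 after the start), the interferon-stimulated type was found in 3.44%, TTCNNNGAA in 8.30%, the composite type in 2.72%, GAGGAA in 28.3% and TATAAA in 13.6%. A match describes letters only and was not tested as a binding site.

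Within the complex, the cytosolic genes Ncf1 and Ncf4 were higher in the IRF8-labelled library, while the membrane core genes Cybb and Cyba and the GTPase gene Rac2 were lower. The differences ran from 19.97% lower for Cybb to 49.8% higher for Ncf4. The counting interval excluded no difference for 5 of the 5 genes, as it did for 49.4% of the 14775 measured genes, a share that grows with depth. Genes were called higher or lower where they differed by at least 1.2-fold with an interval excluding 0 on the log2 scale. Ncf1 and Ncf4 met this upward, 2 of 5 against 15.6% of measured genes, and Cybb met it downward, 1 of 5 against 14.8%. Rac2 and Cyba fell just outside that size. None of the 5 differed by 2-fold, while 2.59% of measured genes were higher and 2.77% lower by that size. The median log2 ratio was -0.21 for the 5 genes and -0.0012 for all measured genes. In bulk tumour RNA, fewer cells of a type and less RNA per cell cannot be told apart.

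Cybb encodes the haem- and flavin-carrying catalytic subunit (ENSMUSG00000015340, chromosome X, 9435252 to 9487771, minus strand, mm10; up to 13 exons in a coding transcript). The vector-labelled library held 2646 of its counts, or 132.7 CPM (127.6 to 137.8, exact Poisson interval at 95%), and the IRF8-labelled library 1864, or 106.2 CPM (101.4 to 111.1). The intervals of the 2 levels do not overlap, and the vector-labelled library was the higher. Cybb was 1.25-fold lower in the IRF8-labelled library (1.18 to 1.33), a log2 ratio of -0.32 (-0.41 to -0.24), and 14.4% of measured genes had a lower ratio.

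Cyba encodes the small partner that stabilises the catalytic subunit and gives the cytosolic subunits a docking site (ENSMUSG00000006519, chromosome 8, 122424776 to 122432930, minus strand; up to 6 exons). Its 1660 and 1267 counts correspond to 83.2 CPM (79.3 to 87.3) in the vector-labelled and 72.2 CPM (68.2 to 76.2) in the IRF8-labelled library. The log2 ratio was -0.21 (-0.31 to -0.10), a level 13.3% lower. Like Cybb, it was higher in the vector-labelled library, by a smaller margin. A long annotated gene, Gm20388, spans the whole Cyba locus on the other strand, and it had 0 counts in either library.

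Ncf1 encodes the organiser that is phosphorylated on activation and brings the cytosolic complex to the membrane (ENSMUSG00000015950, chromosome 5, 134220053 to 134229625, minus strand; up to 11 exons). The vector-labelled library held 621 counts, 31.1 CPM (28.7 to 33.7), and the IRF8-labelled library 751 counts, 42.8 CPM (39.8 to 45.9). The IRF8-labelled library was the higher here, and the intervals of the levels do not overlap. Ncf1 was 1.37-fold higher (1.23 to 1.53), a log2 ratio of 0.46 (0.30 to 0.61). Its 3′ part overlaps Gtf2ird2, a gene on the other strand, over 4303 bases, and the library kit as named does not mark strand. Gtf2ird2 had 324 and 354 counts and a log2 ratio of 0.31 (0.09 to 0.53). With the counts of both genes summed, an alternative chosen after the data were seen, the ratio was 0.41 (0.28 to 0.54).

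Ncf4 encodes the regulator that binds a phosphoinositide of the phagosome membrane (ENSMUSG00000071715, chromosome 15, 78244801 to 78262580, plus strand; up to 10 exons). Its 405 and 534 counts are 20.3 CPM (18.4 to 22.4) in the vector-labelled and 30.4 CPM (27.9 to 33.1) in the IRF8-labelled library. It had the lowest CPM of the 5 genes in both libraries and the largest difference, 1.498-fold higher in the IRF8-labelled library (1.31 to 1.71). The log2 ratio was 0.58 (0.39 to 0.77), and 92.1% of measured genes had a lower ratio.

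Rac2 encodes the Rac GTPase restricted mainly to blood cells (ENSMUSG00000033220, chromosome 15, 78559167 to 78572783, minus strand; up to 7 exons). It had 1301 and 969 counts, 65.2 CPM (61.7 to 68.9) in the vector-labelled and 55.2 CPM (51.8 to 58.8) in the IRF8-labelled library. As for Cybb and Cyba, the vector-labelled library was the higher. The log2 ratio was -0.24 (-0.36 to -0.12), a level 15.4% lower.

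**Figure D1:**
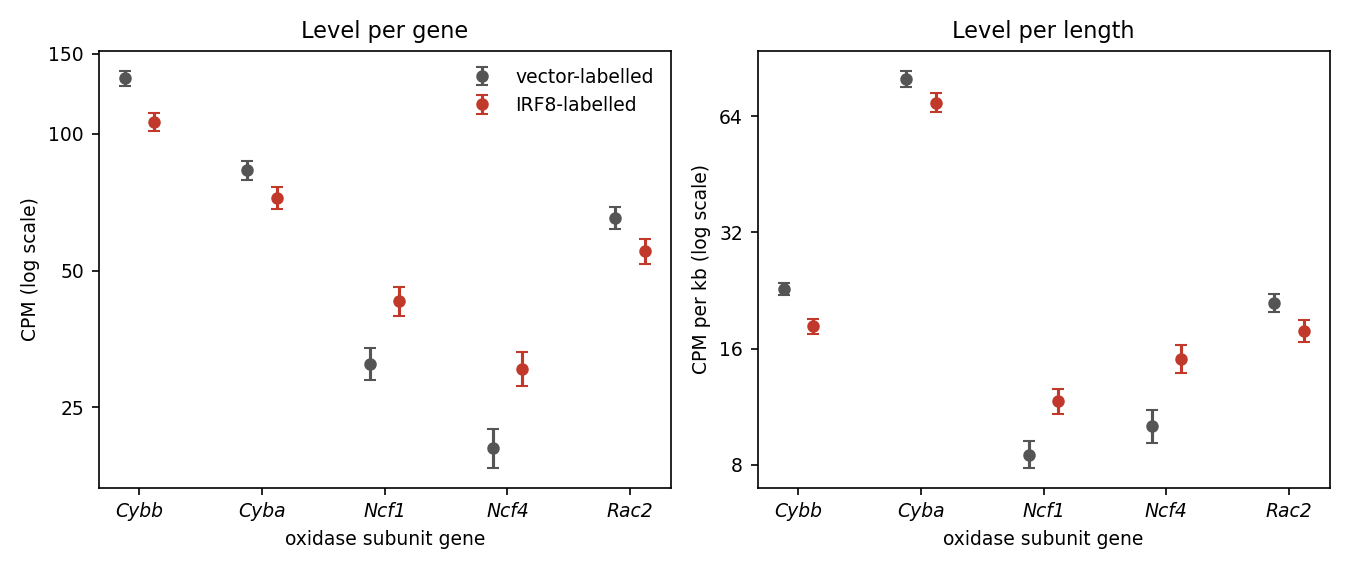
Levels of the 5 oxidase subunit genes in the vector-labelled (grey) and IRF8-labelled (red) library, as CPM (left) and as CPM per kilobase of gene length (right), both on log axes. Points are single libraries and bars are 95% exact Poisson intervals. Ncf1 and Ncf4 sit higher in the IRF8-labelled library, the other 3 higher in the vector-labelled library.

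The reads of these genes had few places to be confused. No stretch of 100 bases in the GENCODE M21 transcripts of Cybb, Cyba, Ncf4 or Rac2 was found in a transcript of another gene, on either strand. For Ncf1, 4.07% of its distinct 100-base stretches were also in transcripts of Gtf2ird2. The sources used here do not give the read length, and at 50 bases the shared part was 7.45% for Ncf1, 2.39% for Cyba, 1.29% for Rac2 and 0% for Cybb and Ncf4.

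Levels were compared between genes per kilobase of the deposited gene length. In the vector-labelled library Cyba was the highest at 80.1 CPM per kb (76.3 to 84.0), followed by Cybb at 22.8 (22.0 to 23.7) and Rac2 at 21.0 (19.9 to 22.2). Ncf4 stood at 10.1 CPM per kb (9.10 to 11.1) and Ncf1 at 8.50 (7.84 to 9.19). The intervals of the neighbours Cybb and Rac2 overlap, and those of Ncf4 and Ncf1 overlap slightly.

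In the IRF8-labelled library the order was the same, with a narrower range. Cyba was at 69.5 CPM per kb (65.7 to 73.4), Cybb at 18.3 (17.5 to 19.1), Rac2 at 17.8 (16.7 to 18.9), Ncf4 at 15.1 (13.8 to 16.4) and Ncf1 at 11.7 (10.9 to 12.5). There the intervals of Cybb and Rac2 again overlap, and that of Ncf4 lies above that of Ncf1 and just below that of Rac2. The level of Cybb was 2.27 times that of Ncf4 in the vector-labelled library and 1.21 times in the IRF8-labelled library. Against Ncf1 the same ratio was 2.69 and 1.57. Of the summed level per length of the 5 genes, Ncf1 and Ncf4 made up 5.96% and 7.05% in the vector-labelled library and 8.83% and 11.4% in the IRF8-labelled library.

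The split within the complex does not rest on scaling, because a ratio of 2 genes within a library cancels the library size. Of the 10 pairs of subunit genes, 6 had a difference of log2 ratio whose exact 95% interval excluded 0, and these are the 6 pairs of Ncf1 or Ncf4 with Cybb, Cyba or Rac2. The share among pairs of other measured genes was not computed, so it is not known whether 6 of 10 is unusual at this depth. The largest was Cybb against Ncf4 at -0.90 (-1.11 to -0.70), and the smallest of the 6 was Cyba against Ncf1 at -0.66 (-0.85 to -0.47). Ncf4 exceeded Rac2 by 0.82 (0.60 to 1.05), Ncf1 exceeded Rac2 by 0.70 (0.50 to 0.90), and Cybb against Ncf1 was at -0.78 (-0.96 to -0.60).

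The other 4 pairs had intervals that held 0. The membrane partners Cybb and Cyba differed by -0.12 (-0.25 to 0.02), Cybb and Rac2 by -0.08 (-0.23 to 0.07), Cyba and Rac2 by 0.04 (-0.13 to 0.20) and Ncf1 and Ncf4 by -0.12 (-0.37 to 0.12). Unequal differences of up to the ends of those intervals could not be seen at this depth.

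**Figure D2:**
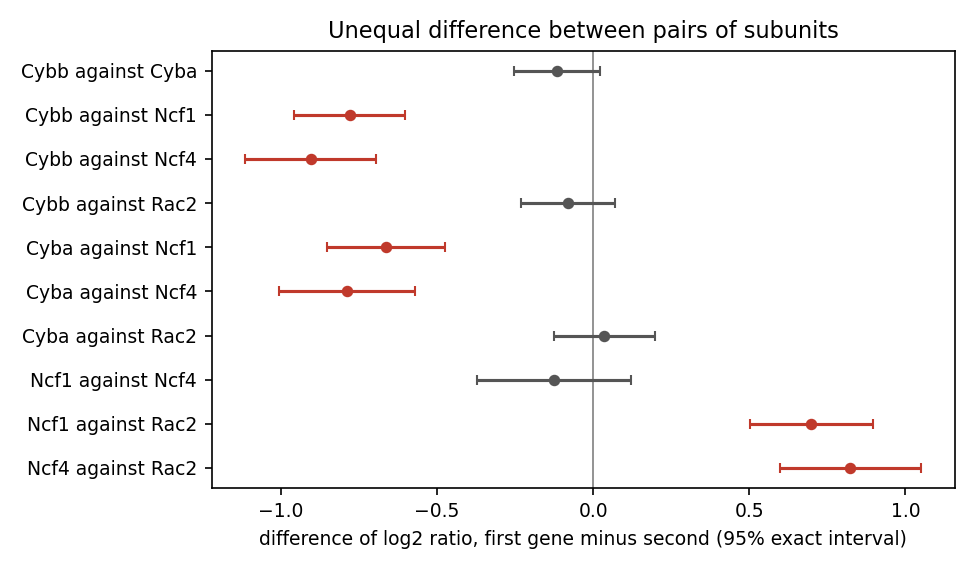
Difference of log2 ratio (x axis, first gene minus second, IRF8-labelled over vector-labelled) for the 10 pairs of subunit genes. Bars are exact 95% intervals from counts, and red marks the 6 pairs whose interval excludes 0, which run from -0.90 for Cybb against Ncf4 to 0.82 for Ncf4 against Rac2.

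Among the other components and binding partners, the chaperone gene Cybc1 was higher in the IRF8-labelled library and 4 of the other genes had intervals below 0. Of 7 measured genes in this list, 1 was at least 1.2-fold higher and 0 were lower by that size, with a list median of -0.10. Over all measured genes, 15.6% were higher and 14.8% lower by that size, and every later list count is to be read beside these shares. Cybc1, whose protein is needed for the membrane core to form, had 1047 and 1141 counts and a log2 ratio of 0.31 (0.19 to 0.43). Rac1, the widely expressed relative of Rac2, had 11091 and 8776 counts and was at -0.15 (-0.19 to -0.11). Rac2 against Rac1, a pair added after the values were seen, was at -0.09 (-0.22 to 0.04), and per length Rac1 was 5.88 times Rac2 in the vector-labelled and 6.25 times in the IRF8-labelled library. About 49.2% of the 100-base stretches of Rac1 transcripts were shared with Daglb, so the level of Rac1 is uncertain. The small GTPase genes Rap1a and Rap1b, whose proteins associate with the membrane core, were at -0.19 (-0.28 to -0.09) and -0.10 (-0.17 to -0.04). Of the genes of proteins that hold Rac in the cytosol, Arhgdia was at -0.07 (-0.11 to -0.03) and Arhgdib, the blood cell form, at 0.18 (0.07 to 0.30). The proton channel gene Hvcn1, which offsets the charge moved by the oxidase, had 131 and 99 counts and a log2 ratio of -0.22 (-0.61 to 0.17). Among small GTPase genes related to Rac2, 3 of 10 measured were higher by 1.2-fold or more, 0 were lower, and the median was 0.19. The largest ratios were those of Rhoj at 0.61 (0.36 to 0.87), Rhob at 0.44 (0.37 to 0.51), Rhoq at 0.30 (0.18 to 0.42) and Rhoc at 0.22 (0.14 to 0.30).

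Other NADPH oxidases were scarce. Of 9 genes of this kind, 3 were measured. Nox4, an oxidase gene of kidney and mesenchymal cells, had 77 and 72 counts and a log2 ratio of 0.08 (-0.40 to 0.57). Its level per length was 0.456 and 0.484 CPM per kb, beside 22.8 and 18.3 for Cybb. The organiser gene Noxo1 had 35 and 14 counts and a log2 ratio of -1.04 (-2.15 to -0.21). At 1.75 and 0.80 CPM, it averaged at least 1 CPM only through the vector-labelled library. The activator gene Noxa1 was higher in the IRF8-labelled library, with 31 and 45 counts and 0.68 (0.03 to 1.43). Noxo1 and Noxa1 both act in the epithelial oxidase, where Noxo1 is the counterpart of Ncf1, and the gene of that oxidase, Nox1, had 8 counts and 1. The list median was -0.51 with no filter on low counts, and none is given for the 3 measured genes.

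**Figure D3:**
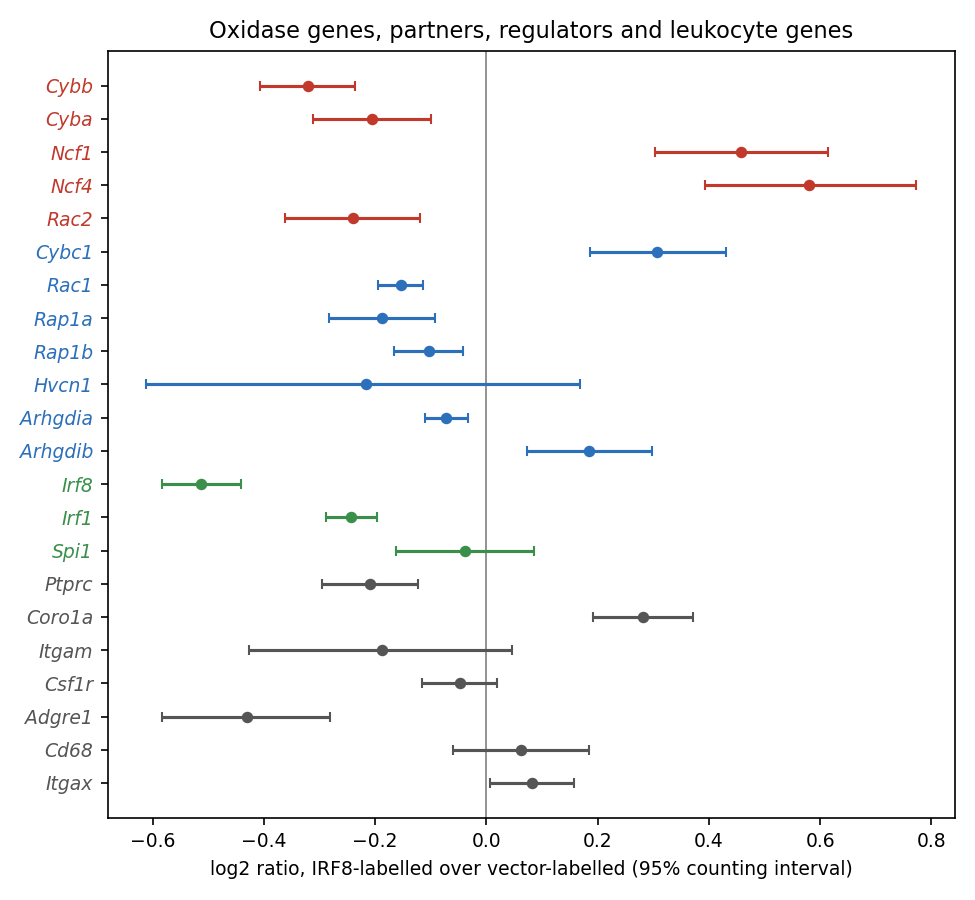
Log2 ratio (x axis, IRF8-labelled over vector-labelled) of the 5 subunit genes (red), their partners (blue), 3 transcription factor genes (green) and 7 leukocyte genes (grey), with 95% counting intervals. Ncf1 at 0.46 and Ncf4 at 0.58 lie to the right of every other gene drawn, and Irf8 at -0.51 lies farthest to the left.

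Among transcription factor genes tied to the oxidase genes, Irf8 and Cebpa were lower and Runx1 and Cebpd higher in the IRF8-labelled library. Of 14 measured genes in the list, 2 were at least 1.2-fold higher and 2 lower, and the median was -0.0032. These counts are near the shares over all measured genes, 15.6% higher and 14.8% lower. Spi1, which encodes PU.1, had 1157 and 992 counts and a log2 ratio of -0.04 (-0.16 to 0.09). Irf1 was at -0.24 (-0.29 to -0.20), short of the 1.2-fold size. Runx1 had 896 and 1433 counts and stood at 0.86 (0.74 to 0.98), Cebpa at -0.56 (-0.68 to -0.45) and Cebpd at 0.41 (0.24 to 0.58). The ratios of Irf8 and Irf1 were below 0, as were those of Cybb, Cyba and Rac2, and those of Ncf1 and Ncf4 were above 0. The part of any of these factors in the oxidase genes was not tested.

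Measured against leukocyte genes, Ncf1 and Ncf4 were higher than nearly every one of the 8 compared, and Cybb, Cyba and Rac2 were lower than 5 each. Ncf4 exceeded 8 of 8, by 0.30 (0.09 to 0.51) for the actin regulator gene Coro1a up to 1.01 (0.77 to 1.26) for Adgre1, which encodes the macrophage antigen F4/80. Ncf1 exceeded 7 of 8, all but Coro1a at 0.18 (-0.0033 to 0.36), and its largest difference was 0.89 (0.67 to 1.11), again against Adgre1. Against Ptprc, the pan-leukocyte gene of CD45, Ncf4 was higher by 0.79 (0.58 to 1.00) and Ncf1 by 0.67 (0.49 to 0.85). How often other measured genes differ from these 8 was not computed.

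The remaining subunit genes stayed near Ptprc, with Cybb at -0.11 (-0.23 to 0.01), Cyba at 0.0030 (-0.13 to 0.14) and Rac2 at -0.03 (-0.18 to 0.12). Against Csf1r, the receptor gene of the macrophage growth factor, Cybb was at -0.27 (-0.38 to -0.16), Cyba at -0.16 (-0.28 to -0.03) and Rac2 at -0.19 (-0.33 to -0.05). Against Cd68 of macrophage lysosomes, Itgax of dendritic cells and some macrophages, and Spi1, all 3 were lower with intervals below 0. For Itgam, the integrin gene of myeloid cells, the intervals of these 3 held 0.

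**Figure D4:**
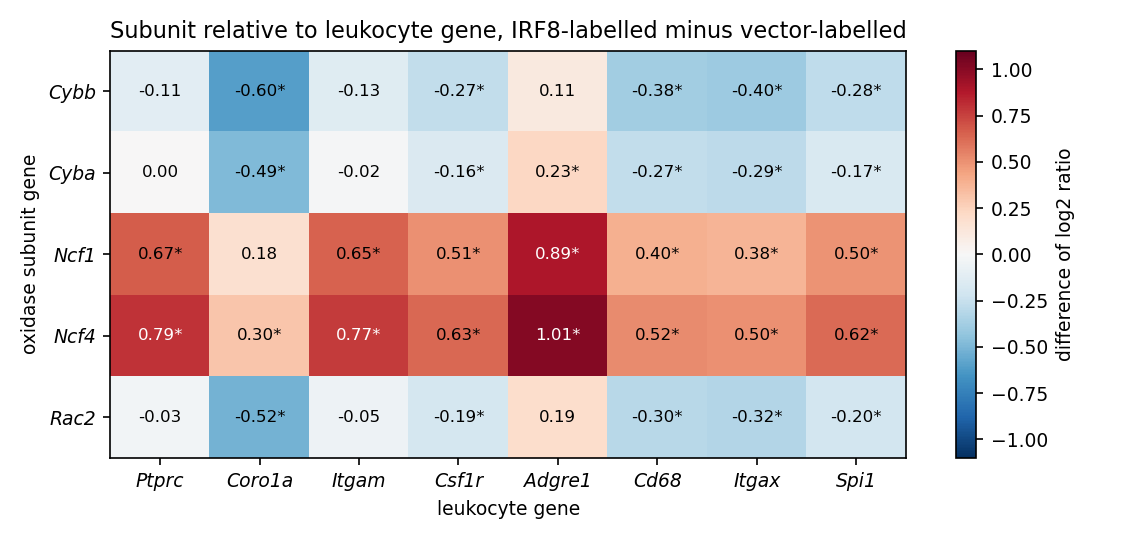
Difference of log2 ratio between each subunit gene (rows) and each of 8 leukocyte genes (columns), IRF8-labelled minus vector-labelled, with a star where the exact 95% interval excludes 0. The Ncf1 and Ncf4 rows are positive throughout, from 0.18 to 1.01, and in the other rows every starred value is negative except Cyba against Adgre1 at 0.23.

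Some marker genes of cell types that carry oxidase genes differed between the libraries. The part of those cell types in the subunit genes' ratios was not tested. Of 11 measured macrophage markers, 0 were at least 1.2-fold higher and 4 lower, with a median of -0.11, beside 15.6% and 14.8% of all measured genes. The 4 lower were Cd14 at -0.47 (-0.65 to -0.29), Adgre1 at -0.43 (-0.58 to -0.28), Mrc1, a mannose receptor gene, at -0.41 (-0.52 to -0.30) and the engulfment receptor gene Mertk at -0.27 (-0.44 to -0.11). The complement genes C1qc at 0.17 (0.11 to 0.22) and C1qa at 0.10 (0.05 to 0.15) had counting intervals above 0 without reaching that size, and those of C1qb at 0.04 (-0.01 to 0.10) and Cd68 at 0.06 (-0.06 to 0.19) included 0. Of 6 monocyte markers, 2 were lower and 0 higher, and their summed level was 123.7 and 104.6 CPM, Plac8 being at -0.31 (-0.44 to -0.18) and F13a1 at -0.88 (-1.18 to -0.61). Neutrophil markers were sparse, with 5 of 10 measured and sums of 36.0 and 34.9 CPM, and the granule gene Ngp had 9 counts and 0. Of the 5 measured, Ly6g was higher at 0.69 (0.09 to 1.35) and Cxcr2 lower at -0.57 (-1.16 to -0.03), while S100a8 was at -0.50 (-1.08 to 0.04) and S100a9 at -0.29 (-0.75 to 0.14). Csf3r, the receptor gene for granulocyte colony-stimulating factor and the most abundant of the 5, had 364 and 368 counts and a log2 ratio of 0.20 (-0.01 to 0.41). The neutrophil median was -0.29 over the 5, -0.53 with no filter on low counts, and 0.20 at a mean of at least 5 CPM, where Csf3r alone was left.

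Dendritic cell markers went both ways between the libraries, and some B cell markers were higher in the IRF8-labelled one. Of 7 measured dendritic cell markers, 2 were at least 1.2-fold higher and 1 lower, with sums of 198.0 and 234.1 CPM and a median of 0.08, which was -0.23 with no filter on low counts. Ccr7, the lymph node homing receptor gene, was at 1.72 (1.495 to 1.97) and Zbtb46 at 0.51 (0.30 to 0.73), while Clec9a, of cross-presenting cells, was at -0.44 (-0.83 to -0.07). Xcr1 was at -0.37 (-1.09 to 0.30), Flt3 at -0.23 (-1.16 to 0.64), Batf3 at 0.15 (-0.11 to 0.42) and Itgax at 0.08 (0.01 to 0.16). Of 8 B cell markers 5 were measured, with sums over the list of 33.5 and 52.7 CPM and no marker at 0. The defining gene Ms4a1 had 1 count and 6, and the joining chain gene Jchain of plasma cells had 93 and 318. The median of the B cell list was 0.77 with no filter on low counts. The 3 genes that averaged 5 CPM or more were Jchain at 1.93 (1.62 to 2.31), Pax5 at 0.27 (0.05 to 0.48) and Cd22 at -0.11 (-0.44 to 0.21). Blk and Cd79a were under 1 CPM in the vector-labelled library and averaged at least 1 CPM only through the IRF8-labelled one. No count of calls or median of the measured B cell markers is therefore given as a result. B cells are known to express Cybb, Cyba, Ncf1 and Ncf4, and their part in the ratios of these genes was not tested. The markers of all leukocytes summed to 884.8 and 847.4 CPM, and among 7 of them Coro1a alone was at least 1.2-fold higher at 0.28 (0.19 to 0.37), none was lower by that size and the median was -0.02.

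Some markers of T cells, which carry Rac2 and Cyba, were lower in the IRF8-labelled library. Of 8 measured markers, 4 were at least 1.2-fold lower and 0 higher, with a median of -0.37 and sums of 87.9 and 65.0 CPM. They were the receptor genes Cd28 at -1.16 (-1.58 to -0.78), Cd2 at -0.75 (-1.12 to -0.41) and Cd5 at -0.50 (-0.88 to -0.14), and the kinase gene Lck at -0.80 (-1.08 to -0.53). The CD3 genes of the list did not reach that size, with Cd3e at 0.0056 (-0.37 to 0.38), Cd3d at -0.23 (-0.56 to 0.10) and Cd3g at -0.25 (-0.50 to -0.0006). Of 3 measured natural killer markers, Gzmb at -1.05 (-1.28 to -0.83) and Prf1 at -0.72 (-0.99 to -0.46) were lower and Eomes was at -0.52 (-1.22 to 0.12).

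**Figure D5:**
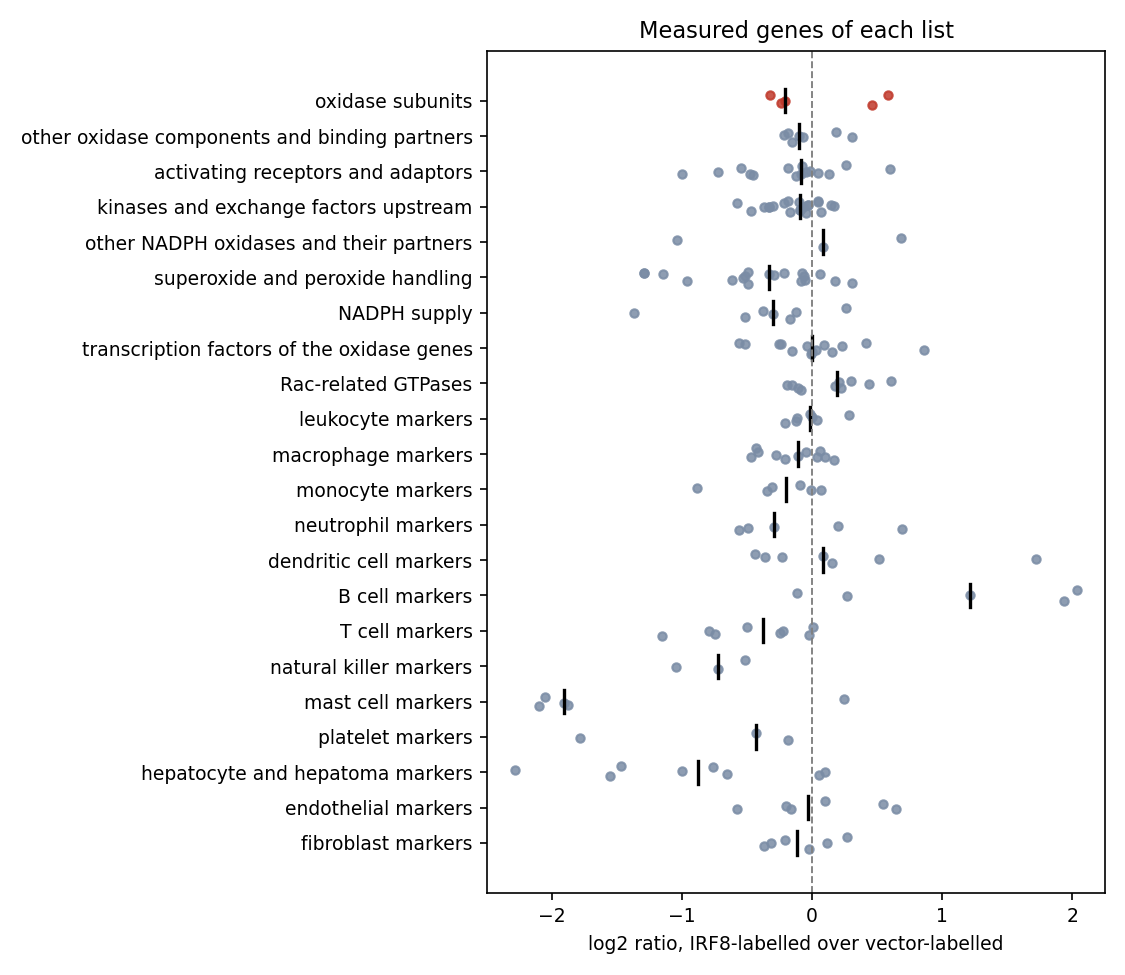
Log2 ratio (x axis, IRF8-labelled over vector-labelled) of every measured gene (points) in the oxidase subunits (red) and 21 other lists (grey), with list medians as black bars and the median of all measured genes as a dashed line. The 5 subunit genes fall into 3 between -0.32 and -0.21 and 2 at 0.46 and 0.58. Blk and Cd79a of the B cell list and Noxo1 of the other NADPH oxidases averaged at least 1 CPM only through 1 library, and the bars of those lists include them.

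Genes that switch the oxidase on were mostly level or somewhat lower. Of 15 measured receptor and adaptor genes, 2 were at least 1.2-fold higher and 5 lower, with a median of -0.09. The formyl peptide receptor gene Fpr2 had 52 and 22 counts and a log2 ratio of -0.997 (-1.85 to -0.31). Ptafr, the receptor gene for platelet-activating factor, was at -0.72 (-1.04 to -0.43) and Clec7a, which encodes the fungal glucan receptor Dectin-1, at -0.55 (-0.63 to -0.47). Trem1, an amplifier of myeloid activation, was at 0.60 (0.09 to 1.15). Of 21 kinase and exchange factor genes, 0 were at least 1.2-fold higher and 4 lower, with a median of -0.10. For both lists the shares over all measured genes were 15.6% higher and 14.8% lower. The 4 lower kinase and exchange factor genes were Vav3 at -0.58 (-1.02 to -0.16) and Elmo1 at -0.33 (-0.56 to -0.11), both acting on Rac, the kinase gene Btk at -0.47 (-0.81 to -0.15) and the phospholipase gene Pla2g4a at -0.37 (-0.60 to -0.14).

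In the lists of superoxide and peroxide handling and of NADPH supply, more genes were lower than higher. Of 19 measured genes of superoxide and peroxide handling, 11 were at least 1.2-fold lower and 1 higher, and the median was -0.33. The quinone reductase gene Nqo1 was at -1.29 (-1.96 to -0.76), the haem oxygenase gene Hmox1 at -1.29 (-1.42 to -1.17), and the glutathione synthesis genes Gclm and Gclc at -1.14 (-1.27 to -1.02) and -0.96 (-1.11 to -0.82). Some genes of enzymes that act on peroxide itself were higher or nearly level. Gpx3 was the 1 higher gene at 0.30 (0.24 to 0.37), and Gpx1 was at 0.17 (0.12 to 0.23). Cat was at 0.06 (-0.06 to 0.18) and Gpx4 at -0.08 (-0.15 to -0.01). Mpo, which turns peroxide into hypochlorous acid in neutrophils, and Epx of eosinophils had 0 counts in both libraries. Of 7 NADPH supply genes, 4 were lower and 0 higher by that size, with a median of -0.30. Idh1 was at -1.37 (-1.46 to -1.28), G6pdx, the entry enzyme of the pentose phosphate pathway, at -0.51 (-0.64 to -0.39), Tkt at -0.37 (-0.44 to -0.31) and Pgd at -0.30 (-0.39 to -0.22). These genes are not restricted to phagocytes, and hepatocyte and hepatoma markers were also lower, 6 of 8 of them past 1.2-fold, their median being -0.88. The part of the cancer cells in these ratios was not tested.

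Ncf4 and Rac2 are neighbours on chromosome 15, with 296586 bases between them, and had opposite ratios. The 8 measured genes between them had a median log2 ratio of -0.33, and the 584 measured genes of the chromosome one of -0.12. Among the 8, the ratios ran from -1.44 (-1.58 to -1.31) for Tst, a sulphur transferase gene of liver, to -0.01 (-0.18 to 0.15) for Csf2rb2. These genes were not on any list and were taken by position alone. Of the 18 measured genes within 500 kb of Ncf4, 1 was at least 1.2-fold higher and 8 were lower. Within 500 kb of Rac2, a window that overlaps the first, 3 of 26 were higher and 7 lower. Around Ncf1, 1 of 14 was higher and 3 lower, around Cyba 4 of 19 and 4, and around Cybb 0 of 3 and 1. Over all measured genes the shares were 15.6% and 14.8%.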

How the data were processed

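Counts per gene were deposited by the authors for both libraries, made with HISAT2 2.0.5, featureCounts 1.5.0-p3 and mm10, per the submitters' processing notes. The sources used here do not say how strand and reads with several placements were treated. Each library used 3 μg of RNA, per the labels' protocols. Counts were scaled by TMM in edgeR 4.0.16 (R 4.3.3), and log2 ratios used a prior count of 2. Alternatives included the size factors of DESeq2 1.42.0. For counting intervals, the Clopper-Pearson interval (95%) of the IRF8-labelled share was converted with the effective library sizes. Pairs of genes were compared by the odds ratio of their counts with its exact conditional interval (SciPy 1.17.1). PCR copies were not marked, so intervals may be too narrow. The steps were tested on simulated counts, drawn for both libraries from a shared profile with set ratios. That checks the calculation only, because the simulated counts hold no variation between tumours and no PCR copies. No protein sequences were used here.

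The subunit genes, the other 24 gene lists, the 1.2-fold size and the 8 leukocyte genes were chosen with earlier results of these data known. Named genes are the subunit genes, Irf8, all 7 other components and partners, the 4 measured genes of each other list with the largest ratios, 10 genes fixed by name, genes overlapping a subunit gene, and the 2 nearest in ratio. Nox1, Ms4a1, Ngp, Mpo, Epx, Tst, Csf2rb2, Csf3r, C1qa, C1qb, C1qc, Cd22, Cd3d, Cd3e and Kit were named after their values were seen. The same holds for Gpx1, Gpx3, Gpx4, Cat, Flt3 and Batf3. Some listed items are not reported here.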

Additional observations from a re-analysis of the deposited data

How the results depend on the processing

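Under 4 other scalings (DESeq2 size factors, total counts, upper quartile, TMM on protein-coding genes) and prior counts of 0.5 and 5, each subunit gene kept its direction and its place on either side of 1.2-fold. Log2 ratios ran from -0.34 to -0.28 for Cybb, -0.23 to -0.17 for Cyba, -0.26 to -0.20 for Rac2 and 0.56 to 0.62 for Ncf4. Those of Ncf1 ran from 0.41, with Gtf2ird2 added (an alternative chosen after seeing the data), to 0.50. The numbers of genes at least 2-fold higher and lower, 383 and 410, were 814 and 719 with no filter beyond 1 count, and 119 and 179 at a mean of at least 5 CPM, where fewer genes are tested. The numbers past 1.2-fold stayed within 1.5 times of 2308 and 2185. Of list medians, the filter on low counts moved those of dendritic cell markers (0.08, -0.23 without it and 0.15 at 5 CPM) and neutrophil markers (-0.29, -0.53 without it and 0.20 at 5 CPM). Those of B cell markers and other NADPH oxidases were 0.77 and -0.51 without the filter. The filter also moved those of monocyte markers (-0.20, and -0.09 at 5 CPM) and endothelial markers (-0.03, and 0.10 at 5 CPM). Medians close to 0, those of endothelial and leukocyte markers and of transcription factors, changed sign with total counts. That of transcription factors also did so with upper quartile scaling and without the filter. Total counts moved the fibroblast median from -0.12 to -0.08. No paired analysis was possible because each group has 1 library, and for the same reason none could be left out. Depth limits the low genes most: 3 counts are 0.150 and 0.171 CPM, and markers such as Ms4a1 rest on few reads.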

Other observations

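Of 5 measured mast cell markers, 4 were at least 1.2-fold lower, with a median log2 ratio of -1.90 and Cpa3 at -2.10 (-2.92 to -1.52). The other, Kit, was at 0.24 (-0.05 to 0.55). Platelet markers had 2 of 3 lower, a median of -0.43, Ppbp at -1.78 (-2.55 to -1.22), and Gp1bb and Gp9 at 0 counts in both libraries. Of the eosinophil markers 1 of 6 was measured, Siglecf with 63 and 140 counts at 1.31 (0.90 to 1.79), and Epx and Ear1 had 0 counts in both libraries. Skeletal muscle genes ran from 3.48 (Mylpf) to 6.90 (Myh4), with Myh4, Ckm and Tnnt3 under 1 CPM in the vector-labelled library. Of the adipocyte genes, Fabp4 had 585 and 1071 counts at 1.05 (0.910 to 1.204) and Cfd 28 and 380 at 3.85 (3.39 to 4.56). Adipoq, Plin1 and Cidec were under 1 CPM in the vector-labelled library. These 6 genes averaged at least 1 CPM only through the IRF8-labelled library, so no count or median of either list is given as a result. Endothelial markers had 2 of 6 higher and 0 lower (median -0.03, Emcn at 0.65), and fibroblast markers 1 higher and 2 lower of 6 (median -0.12, Dcn at 0.27 and Col3a1 at -0.31).

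With 2 libraries a gene's pattern is 1 log2 ratio, and many genes share it. The genes of the other lists nearest to each subunit gene, by the absolute difference of that ratio, were Col3a1 and Elmo1 for Cybb (within 0.0090), Kdr and Ptprc for Cyba (within 0.0031) and Irf1 and Cd3g for Rac2 (within 0.0088). For Ncf1 they were Rhob and Cebpd (within 0.046) and for Ncf4 Rhoj and Cldn5 (within 0.037). As near were 81 to 306 genes averaging 5 CPM or more.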
